A study of Homo sapiens with 48 samples.

Results

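BEAS-2B cells, an immortalised human bronchial epithelial line, had received either of 2 treatments that act on the same pathway, and the transcripts they left behind were compared array by array. One was GS-5759 at 10 nM, a single molecule that is both a β2-agonist and an inhibitor of phosphodiesterase 4 (PDE4). The other was Ind/GSK, the β2-agonist indacaterol and the PDE4 inhibitor GSK 256066 given together, both at 10 nM. Of the 48 arrays of the study, the 32 that carried 1 of these treatments were used: 16 with GS-5759 and 16 with Ind/GSK, 4 of each at 1, 2, 6 and 18 h. The 16 vehicle arrays were not used here. Arrays of the same time and the same replicate number in their titles were matched, which gave 16 pairs of GS-5759 against Ind/GSK. All cells were confluent and had spent the last 24 h before treatment in medium without growth supplements. All 32 arrays are labelled as this 1 cell line. Nothing in the labels says whether the 4 replicates of a group were grown separately, so a p-value here reflects only how these arrays scatter, which may be technical.

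A β2-agonist activates adenylyl cyclase through the G protein Gs, and the cAMP that results activates protein kinase A, which phosphorylates the transcription factor CREB. PDE4 enzymes break cAMP down in airway epithelium, so a β2-agonist and a PDE4 inhibitor both raise it. CREB switches on a rapid set of genes, among them the NR4A orphan nuclear receptors, the repressor ICER from the CREM gene, the kinase SIK1 and PDE4 genes themselves, several of which act back on the pathway. The comparison asks whether the single molecule and the combination of separate agents left the same transcripts, without reference to untreated cells.

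Signals are probe set intensities on a linear scale. Differences are GS-5759 minus Ind/GSK on the log2(signal + 16) scale, which understates the change of dim genes, with their SE from 1 limma model of all 16 pairs, and folds are GS-5759 over Ind/GSK on that scale. A gene was called where the p adjusted by Benjamini-Hochberg over the 14412 genes tested was under 0.05. Each gene is given by 1 probe set, the one with the highest mean of log2(signal + 16) over the 32 arrays, which need not have the highest mean signal.

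Whole arrays differed in ways that bear on the values that follow. Replicate 3 stood apart in both treatments: KRT14, a keratin of basal epithelial cells, read 313385 to 385926 in the 4 GS-5759 arrays and 291026 to 441003 in the 4 Ind/GSK arrays of that number, and 13.3 to 26.6 and 17.6 to 31.9 in the GS-5759 and Ind/GSK arrays of the other numbers. That replicate 3 is the same cell line rests on the labels alone. The gap was common to both arrays of a pair, and matched arrays correlated at 0.990 to 0.998, against 0.951 to 0.997 between replicates of 1 group. GS-5759 arrays were also brighter at the upper end: their 75th percentile of signal lay above that of the matched Ind/GSK array in 14 of 16 pairs, by 0.07 ± 0.067 on the log2 scale (SD, n = 16; exact two-sided sign-flip test, p = 0.00137), while the array medians differed by 0.018 ± 0.038 (10 of 16 pairs, p = 0.0778). These tests treat the 16 pairs as independent, although the same 4 replicate numbers recur at each time. With the mean of each number as the unit, 4 of 4 lay above 0, at 0.029 to 0.10, and p was 0.125, the smallest that 4 values can give. The median difference over all genes was 0.085 at 1 h, 0.046 at 2 h, 0.053 at 6 h and 0.03 at 18 h, and each value below is to be read against it. Of the airway epithelial markers, the keratins KRT8 and KRT18 averaged 5036 and 7793 over the arrays and EPCAM 101, not far above the lowest signal tested (75.2). The leukocyte marker PTPRC and the ciliated and club cell markers FOXJ1 and SCGB1A1 were not among the genes tested. Other members of these lists were tested. They were 5 of 8 in the leukocyte list, with CD14 at 123 and HBB, a globin gene of red cells, at 591. In the ciliated and club cell list they were 3 of 10, with CAPS at 212 and MUC5AC, a goblet cell mucin, at 155. Fibroblast markers were tested for 9 of 10 members, with COL1A1 at 8846, and endothelial markers for 1 of 7, PECAM1, at 517.

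**Figure D1:**
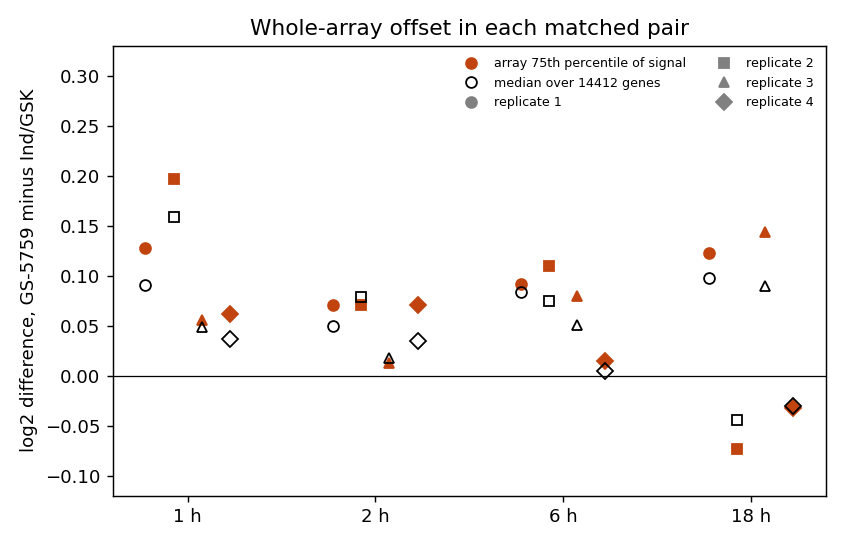
Log2 difference of the 75th percentile of signal (filled) and median log2 difference over 14412 genes (open), GS-5759 minus Ind/GSK, in each of 16 matched pairs by time; symbols mark the replicate number. Of the filled points, 14 of 16 lie above 0, and the largest is 0.20, in replicate 2 at 1 h.

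Of the genes that cAMP is best known to induce, the NR4A receptors were not called at 1 or 2 h. NR4A2, an orphan nuclear receptor, read 4984, 1340.1, 7136 and 758 in GS-5759 arrays, against 3745, 939, 10239 and 822 in Ind/GSK arrays at 1 h, in replicates 1 to 4. Replicates 1 and 3 were the high ones in both treatments, and GS-5759 was above Ind/GSK in 2 of the 4 pairs. Differences within pairs were 0.41, 0.51, -0.52 and -0.12 in replicates 1 to 4, so gaps of opposite sign offset each other in the mean. The difference of 0.07 ± 0.23 was smaller than its error (fold 1.05, 95% interval 0.747 to 1.48; adjusted p = 0.824). Its paralogue NR4A3 peaked at 2 h, with 3208, 1270.1, 3115 and 1083 in GS-5759 arrays, against 2880.3, 1319, 2813 and 1041 in Ind/GSK arrays. Again replicates 1 and 3 exceeded 2 and 4, by more than the treatments differed in any pair (0.076 ± 0.18, adjusted p = 0.9). NR4A1 at 1 h had 1245, 780.4, 1402 and 586 in GS-5759 arrays, against 1091, 725, 1284 and 580.3 in Ind/GSK arrays. All 4 GS-5759 arrays lay slightly above their matches, with a difference of 0.11 ± 0.10 against 0.085 for the median gene. Other NR4A1 probe sets above the filter gave 0.28 at 1 h, at about the same brightness, and -0.11, a dim one.

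Of the other transcription factors shown at 1 or 2 h, none was called. CREM, the gene of the repressor ICER, read 664, 422, 680.2 and 448 in GS-5759 arrays, against 612, 423, 651 and 448 in Ind/GSK arrays at 2 h, and in replicates 2 and 4 the matched arrays were within 1 unit of each other. The 95% interval of its fold, 0.963 to 1.1, was the narrowest of the transcription factors shown here. PRDM1, a transcriptional repressor also called BLIMP1, had 920.2, 841, 621 and 846 in GS-5759 arrays, against 774, 613, 603 and 858 in Ind/GSK arrays at 1 h. Only replicates 1 and 2 carried the difference of 0.18 ± 0.11 (adjusted p = 0.298). KLF6, a zinc finger factor, averaged 5749.6 ± 789 in GS-5759 arrays and 5641 ± 929 in Ind/GSK arrays at 1 h (SD, n = 4 each).

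EGR1, an immediate early zinc finger factor, was the 1 gene called on the average of the 4 times among the 29 tested of this panel (15.3% of all genes were called), at 0.19 ± 0.055 (fold 1.14, adjusted p = 0.0358, higher with GS-5759 in 12 of 16 pairs). The gap was widest at 6 h, where EGR1 read 832, 693, 811 and 616 in GS-5759 arrays, against 519, 627, 455 and 641 in Ind/GSK arrays. In replicates 1 and 3 the GS-5759 array was higher, and in replicates 2 and 4 the 2 arrays were nearly level. At that time the difference was 0.39 ± 0.11 (adjusted p = 0.342), and a second, equally bright probe set gave 0.59 and a dim one -0.035. EGR1 was not called once the arrays were centred on their 75th percentile, where its average difference was 0.12 (adjusted p = 0.255). The panel of 30 cAMP-response genes was chosen with earlier results of these data known, so its values describe these genes and support no wider claim.

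Letters that CREB binds are shown for 4 of these genes, because CREB is the factor that raised cAMP is known to act through. In the 250 bases before the gene's start (RefSeq, GRCh38.p14), the full palindrome TGACGTCA was found in 1 of 16 matched promoters of the tested cAMP-CREB target genes and in 1.77% of 27305 promoters of all genes. The shorter TGACG, on either strand and counted also where it lies inside the palindrome, was in 8 of 16, against 21.7% of all promoters. The lines give the strand of the gene from 5′ to 3′ with 1 match in capitals, and further copies of the shorter letters within a line stay in lower case. CGTCA is TGACG on the other strand.
NR4A3, chr9:99821776-99821816, plus strand: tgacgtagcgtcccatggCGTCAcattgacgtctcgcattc
SIK1, chr21:43427235-43427275, minus strand: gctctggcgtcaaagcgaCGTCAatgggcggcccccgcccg
RGS2, chr1:192808840-192808880, plus strand: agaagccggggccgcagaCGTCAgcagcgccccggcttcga
DUSP1, chr5:172771295-172771338, minus strand: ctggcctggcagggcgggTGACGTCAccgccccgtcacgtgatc
The palindrome was in DUSP1 only, and NR4A3 and DUSP1 each held 4 copies of the shorter letters in the 250 bases, where the palindrome of DUSP1 was counted once on each strand. A match describes these letters and does not show that CREB was bound there.

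Transcripts of PDE4, a target of both treatments, were compared at 2 h and again at 18 h. PDE4D, which breaks down cAMP, read 2627, 1639, 3627 and 1495 in GS-5759 arrays, against 2553, 1522, 4106 and 1409.8 in Ind/GSK arrays at 2 h. The difference was 0.013 ± 0.13, and a 1.5-fold gap in either direction lay outside its interval of 0.83 to 1.23. PDE4B, the isoform best known in inflammation, had 660.1, 617, 857 and 602 in GS-5759 arrays, against 627, 565, 861 and 558 in Ind/GSK arrays at the same time. PDE4A, a further isoform, read 682, 607, 575 and 592 in GS-5759 arrays, against 633, 681, 532 and 573 in Ind/GSK arrays. Neither differed beyond its error, at 0.074 ± 0.079 for PDE4B and 0.024 ± 0.054 for PDE4A. At 18 h PDE4D read 510.4, 346, 966 and 395 in GS-5759 arrays, against 572, 422, 1566 and 406 in Ind/GSK arrays, lower with GS-5759 in 4 of 4 pairs and most so in replicate 3, by -0.29 ± 0.13 (unadjusted p = 0.044, adjusted p = 0.976). PDE4B had 235, 204, 508 and 200.5 in GS-5759 arrays, against 253, 242, 579 and 224 in Ind/GSK arrays, also lower in 4 of 4 pairs, by -0.17 ± 0.079 (adjusted p = 0.976). Less bright probe sets above the filter gave -0.29, -0.14, -0.054 and -0.012 for PDE4D at 18 h, and -0.032 for PDE4B.

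Genes of signalling feedback came next. SIK1, a kinase that holds back the CREB coactivators, had 6093, 4030.3, 6295 and 4342 in GS-5759 arrays, against 5793, 3474, 6130.1 and 3473 in Ind/GSK arrays at 2 h, where GS-5759 was higher in all 4 pairs by 0.16 ± 0.12 (adjusted p = 0.714). RGS2, which shortens G protein signals, read 9735, 5948, 7141 and 5518 in GS-5759 arrays, against 9593, 5708, 6703 and 5400.2 in Ind/GSK arrays at 1 h. Each of its 4 GS-5759 arrays was above its match, yet by 0.051 ± 0.073, less than the median gene. SGK1, a kinase that regulates ion transport, averaged 7459 ± 858 in GS-5759 arrays and 7073 ± 794 in Ind/GSK arrays at 1 h, and TRIB1, a pseudokinase, 1978 ± 263 in GS-5759 arrays and 1810.2 ± 307 in Ind/GSK arrays.

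Phosphatases and inhibitors of the MAP kinase pathway were compared at 1 or 2 h. DUSP1, which dephosphorylates p38 and JNK, read 14357, 13747, 14560.2 and 13338 in GS-5759 arrays, against 14060.4, 13746, 14715 and 13412 in Ind/GSK arrays at 1 h. The mean gap between matched arrays was 0.0018 ± 0.063, with an interval of 0.913 to 1.1-fold. Less bright probe sets of DUSP1 gave 0.16 and -0.078 at 1 h, so the close match holds for the probe set shown. DUSP4 at 2 h averaged 3519 ± 301 in GS-5759 arrays and 3300.1 ± 407 in Ind/GSK arrays, and SPRY2, an inhibitor of growth factor receptors, 2974 ± 780.1 in GS-5759 arrays and 2917 ± 1078 in Ind/GSK arrays at 1 h. DUSP4 was higher with GS-5759 in 4 of 4 pairs at 2 h, by 0.096 ± 0.079 (adjusted p = 0.729), and lower in 4 of 4 at 6 h, by -0.19 ± 0.079 (adjusted p = 0.358). SPRY2 was higher in 2 of 4 pairs at 1 h, by 0.058 ± 0.077 (adjusted p = 0.572).

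**Figure D2:**
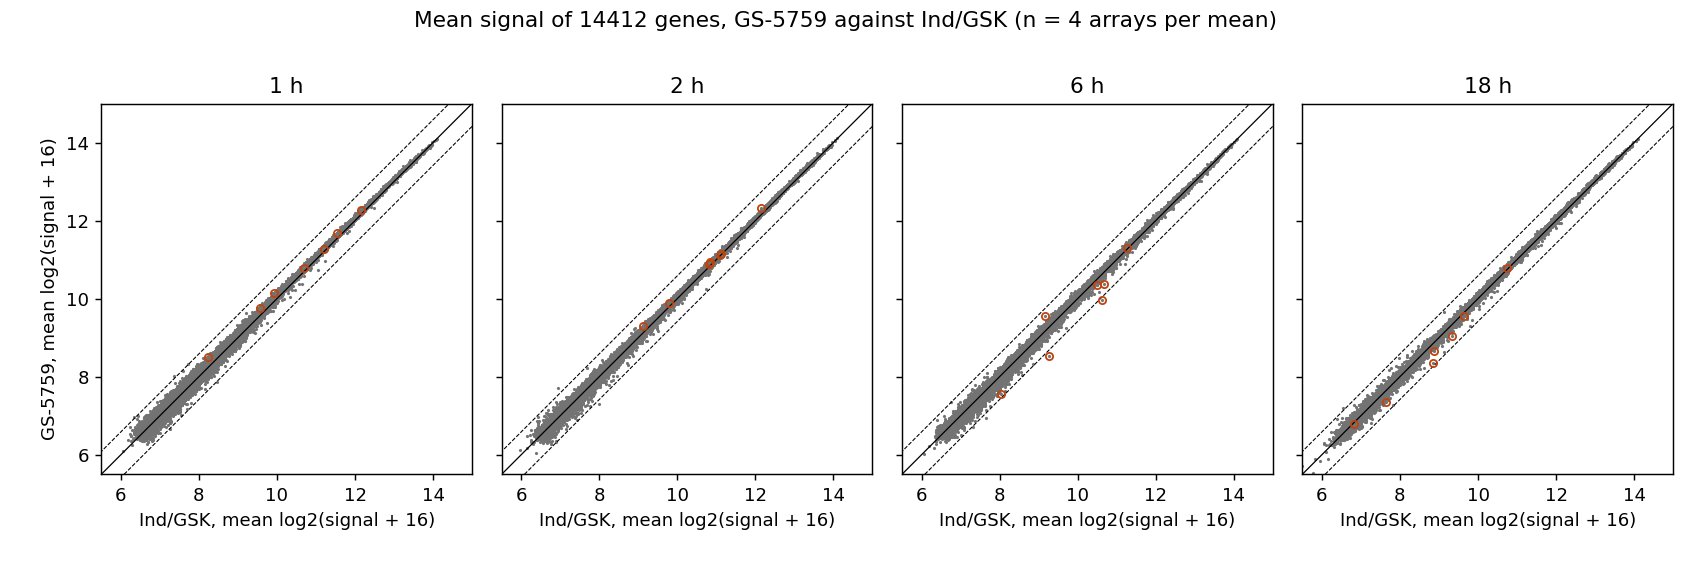
Mean log2(signal + 16) of 14412 genes with GS-5759 (vertical) and Ind/GSK (horizontal) at each time, 4 arrays per mean; the solid line is equality, the dashed lines are 1.5-fold, and circles mark NR4A2, SIK1, PDE4D, IL6, EGR1, PDK4 and CRISPLD2. At 1 and 2 h the circles lie along the line, and at 6 h NR4A2 and PDK4 lie below the lower dashed line.

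None of the secreted and surface products was called at 1 h. IL6, a cytokine, read 1842, 1520.4, 3339.8 and 1012 in GS-5759 arrays, against 1733, 1141, 3393 and 1077 in Ind/GSK arrays at 1 h, with replicate 3 the highest array of both treatments. The difference of 0.096 ± 0.14 was within the error. CXCL2, a neutrophil chemokine, had 827, 590.0, 1214 and 381 in GS-5759 arrays, against 608, 425, 1181 and 381 in Ind/GSK arrays. With GS-5759 it was higher in 3 of the 4 pairs, by 0.23 ± 0.085 (unadjusted p = 0.0154, adjusted p = 0.175), while a dimmer probe set above the filter gave 0.035. Endothelin-1 (EDN1), a bronchoconstrictor peptide, averaged 4688 ± 506 in GS-5759 arrays and 4686 ± 901 in Ind/GSK arrays at 1 h.

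Of the later or slower members, none was called at the times shown. CRISPLD2, a secreted protein that glucocorticoids also induce in airway cells, read 4053, 2540.3, 1659.8 and 2208 in GS-5759 arrays, against 4280.0, 2254, 1799 and 1999.9 in Ind/GSK arrays at 6 h, with replicate 1 the highest in both treatments and a difference of 0.03 ± 0.078. CD200, an inhibitory surface ligand for myeloid cells, averaged 3365 ± 692 in GS-5759 arrays and 3359 ± 579 in Ind/GSK arrays at 2 h. IL15, a cytokine for natural killer and memory T cells, had 1082, 758, 795 and 781 in GS-5759 arrays, against 1251, 725, 1202 and 766 in Ind/GSK arrays at 6 h, where replicates 1 and 3 were lower with GS-5759 and replicates 2 and 4 slightly higher (-0.18 ± 0.088, adjusted p = 0.395). CCN2, a matricellular protein, averaged 7965 ± 1759 in GS-5759 arrays and 7144 ± 1209 in Ind/GSK arrays at 1 h; its difference of 0.15 ± 0.064 had an unadjusted p of 0.0368 and an adjusted p of 0.199.

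Members of other kinds were compared at 2 and 6 h. The long non-coding RNA LINC00473, transcribed after cAMP signals, read 2287, 2211, 1337 and 1969 in GS-5759 arrays, against 2207, 1765, 1291 and 1934 in Ind/GSK arrays at 2 h, and its replicate 2 difference of 0.32 was larger than those of the other 3 pairs. TXNIP, an inhibitor of thioredoxin and of glucose uptake, averaged 1229.9 ± 297 in GS-5759 arrays and 1255 ± 313 in Ind/GSK arrays at 2 h, and the mitotic kinase AURKA 4081 ± 889.6 in GS-5759 arrays and 4009 ± 843 in Ind/GSK arrays. CSGALNACT1, which starts chondroitin sulfate chains, averaged 1076 ± 331 in GS-5759 arrays and 1113 ± 406 in Ind/GSK arrays at 6 h. Cyclin F (CCNF) at 6 h had 674, 925, 733 and 736 in GS-5759 arrays, against 586, 675, 504 and 734 in Ind/GSK arrays; all 4 GS-5759 arrays were higher than their matches, least in replicate 4, by 0.29 ± 0.074 (unadjusted p = 0.00119, adjusted p = 0.342).

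**Figure D3:**
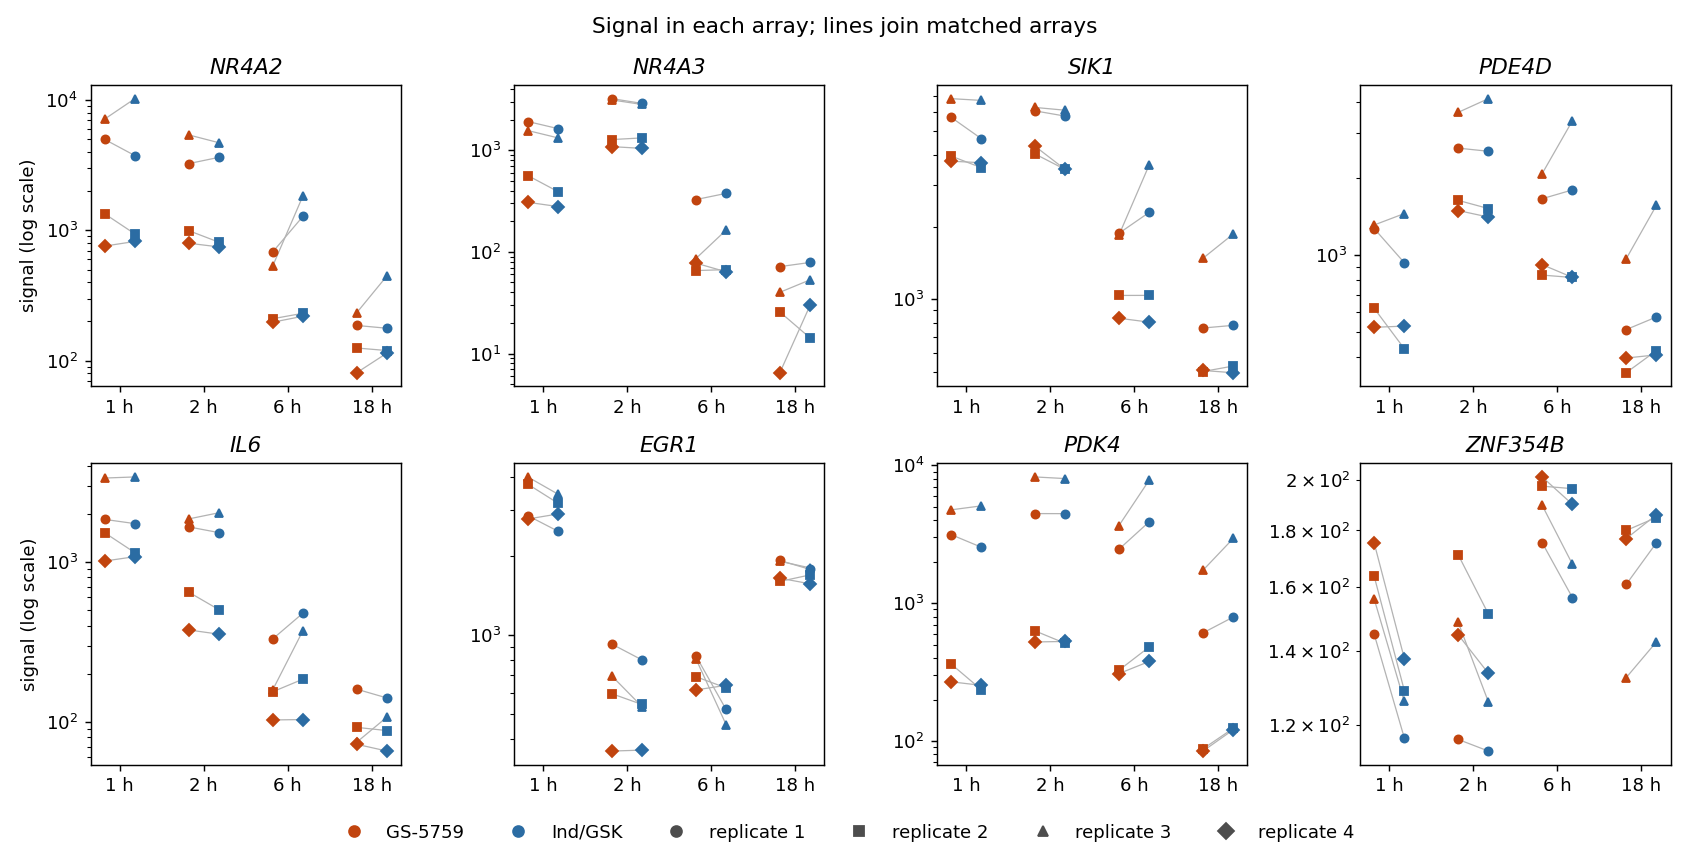
Signal on a log axis of 8 genes in each array by time, GS-5759 left of Ind/GSK; grey lines join matched arrays and symbols mark the replicate number. At 1 and 2 h most lines are near level, while at 6 h the lines of replicates 1 and 3 climb towards Ind/GSK for NR4A2, SIK1 and IL6 and fall for EGR1, and for PDK4 the lines climb in all 4 pairs.

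At 6 h the cAMP-induced genes leaned lower with GS-5759, and the lean sat mainly in replicate 3. NR4A2 read 683, 210.0, 532 and 197 in GS-5759 arrays, against 1280.0, 231, 1838 and 219 in Ind/GSK arrays. The pair differences were -0.89, -0.13, -1.76 and -0.14 in replicates 1 to 4, so both high replicates carried most of the mean of -0.73 ± 0.23 (adjusted p = 0.342), and both other probe sets of NR4A2 gave -0.76 and -0.75. Without replicate 3 the mean was -0.39. SIK1 had 1885, 1038, 1853 and 834 in GS-5759 arrays, against 2303, 1039, 3631 and 804 in Ind/GSK arrays, with a mean difference of -0.30 ± 0.12 that was -0.078 without replicate 3. PDE4D read 1664, 835, 2086 and 918 in GS-5759 arrays, against 1801, 817, 3361 and 818 in Ind/GSK arrays; its difference of -0.15 ± 0.13 was 0.027 without replicate 3, the opposite sign. IL6 had 329.6, 154, 158 and 103 in GS-5759 arrays, against 478, 185, 371 and 103 in Ind/GSK arrays, lower with GS-5759 in 4 of 4 pairs by -0.48 ± 0.14 (-0.25 without replicate 3), although the pair of replicate 4 was level to 3 digits. None of these passed the adjustment, with adjusted p between 0.342 and 0.587.

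Over the list of cAMP-CREB target genes, 18 of 24 members passed the filter, and none was called at any single time. On average over the times 2 were called higher and 0 lower, against 14.2% and 1.15% of all genes. Their median difference was 0.14 at 1 h, 0.10 at 2 h, -0.12 at 6 h and -0.081 at 18 h, and 14, 16, 3 and 6 of 18 members lay above the median of all genes at those times. Within the pairs the median over the list was 0.21, 0.30, 0.016 and 0.015 at 1 h and -0.07, 0.027, -0.46 and 0.026 at 6 h, in replicates 1 to 4. Replicate 3 at 6 h thus gave the lowest value of the 16 pairs, with 15 of 18 members below 0, and replicates 2 and 4 were near 0. Without replicate 3 the 6 h median of the list was 0.011, against 0.056 for all genes. A test of whether a gene's difference varied over the 4 times called 0 of 14412 genes (0% of those tested; 299 had an unadjusted p under 0.05, and the smallest adjusted p was 0.648), so no gene of the list is shown to differ between times.

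**Figure D4:**
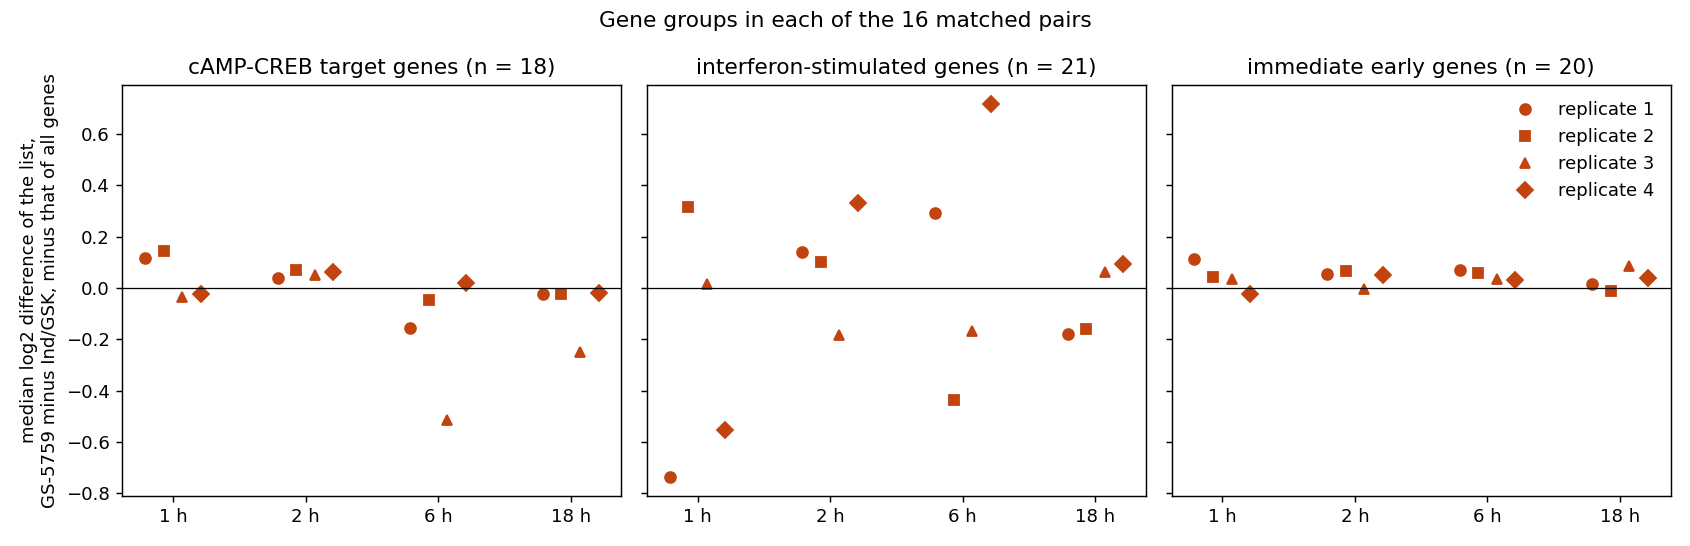
Median log2 difference, GS-5759 minus Ind/GSK, of 3 gene lists in each matched pair, after subtracting the median of all genes in that pair; symbols mark the replicate number. The cAMP-CREB genes lie lowest in replicate 3 at 6 h (-0.51), the interferon-stimulated genes range from -0.74 to 0.72 with replicates on both sides of 0 at each time, and the immediate early genes stay between -0.023 and 0.11.

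PDK4, a kinase that shuts off pyruvate dehydrogenase, was the lower gene with the smallest p at 6 h. It read 2459, 326, 3654 and 309 in GS-5759 arrays, against 3892, 481, 7802 and 378 in Ind/GSK arrays, and 609, 87.8, 1732 and 84.7 in GS-5759 arrays, against 793, 124, 2945 and 121 in Ind/GSK arrays at 18 h. GS-5759 was lower in all 4 pairs at both times, by -0.64 ± 0.12 at 6 h (fold 0.641, unadjusted p = 4.79e-05, adjusted p = 0.342) and -0.50 ± 0.12 at 18 h (adjusted p = 0.976). The lean was present in replicates 2 and 4 as well as in the bright replicates 1 and 3, and without replicate 3 it was -0.49 at 6 h and -0.41 at 18 h. A second probe set, less bright, gave -0.64 at 6 h and -0.30 at 18 h. At 1 h PDK4 had 3143, 363, 4746 and 269 in GS-5759 arrays, against 2546, 236, 5072 and 254 in Ind/GSK arrays, higher with GS-5759 in 3 of 4 pairs, by 0.22 ± 0.12 (adjusted p = 0.244), and the second probe set gave 0.49. At 2 h PDK4 had 4459.6, 629.6, 8222 and 523 in GS-5759 arrays, against 4455, 511, 8001 and 528 in Ind/GSK arrays, a difference of 0.08 ± 0.12. On the average of the 4 times PDK4 was called lower, at -0.21 ± 0.058 (adjusted p = 0.0317), and under both other scalings as well, although only 10 of 16 pairs were lower, and that average joins positive differences at 1 and 2 h with negative ones at 6 and 18 h.

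At single times almost nothing passed the test. At 1 h 1 gene was called (0.00694% of 14412), the zinc finger gene ZNF354B, which read 145, 164, 156 and 175 in GS-5759 arrays, against 117, 129, 126 and 138 in Ind/GSK arrays. The lowest GS-5759 array lay above the highest Ind/GSK array, and the difference was 0.29 ± 0.039 (fold 1.23, adjusted p = 0.0217). The gene was picked by its small p from these same arrays, so their separation is no added support. ZNF354B was no longer called after 75th percentile centring, with the unpaired fit or without any 1 of the 4 replicates. At 2, 6 and 18 h limma called 0 genes (0% each), with 1091, 1927 and 429 genes at an unadjusted p under 0.05, against 3309 at 1 h. The smallest adjusted p was 0.16 at 2 h, 0.342 at 6 h and 0.294 at 18 h.

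The genes nearest to being called at each time had the same direction in all 4 pairs. They were chosen by small p from these same pairs, which favours a common direction, so it is no added support. At 1 h these were higher CLCA2, an epithelial adhesion protein, with 226, 350.3, 378 and 217 in GS-5759 arrays, against 172, 262, 312 and 196 in Ind/GSK arrays (0.29 ± 0.047, adjusted p = 0.099), and the pseudogene PMS2P2 (0.48 ± 0.08, adjusted p = 0.099). Lower ones at 1 h were LINC01104 (-0.28 ± 0.051), LOC100506858 (-0.29 ± 0.058) and MEFV, the gene of the inflammasome sensor pyrin (-0.43 ± 0.088), with adjusted p from 0.114 to 0.12. At 2 h the higher ones were DHRS2 (0.35 ± 0.06), PCF11, a transcription termination factor (0.22 ± 0.047), and PAIP2B, a translation inhibitor (0.37 ± 0.082). The lower ones at 2 h were LINC01366 (-0.41 ± 0.064), the ribosomal protein gene RPL27A (-0.48 ± 0.10) and NCF4, a subunit of the phagocyte oxidase (-0.35 ± 0.081). A second probe set of LINC01366 gave 0.038 at 2 h and 0.041 at 6 h. NCF4, PMS2P2 and LOC100506858 were dim, at mean signals of 75.9, 86.7 and 89.6, against a filter of 75.2.

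At 6 h the higher ones were DIDO1 (0.23 ± 0.049), the ubiquitin ligase gene G2E3 (0.26 ± 0.057) and ZSWIM1 (0.19 ± 0.043). Beside PDK4 the lower ones were B4GALT1, a galactosyltransferase (-0.32 ± 0.059, with other probe sets of the gene near 0 on average), and LINC01366 (-0.32 ± 0.064). At 18 h EVC2, a component of primary cilia (0.27 ± 0.058), the channel gene BEST2 (0.26 ± 0.059) and CNNM2, a magnesium transporter (0.17 ± 0.041), were highest in rank. EVC2 was dim, at a mean signal of 96.6. Other probe sets of CNNM2 gave 0.18, 0.011 and -0.050 at that time. On the lower side stood 3 epithelial surface or keratin genes. CLMP, a tight junction adhesion molecule, read 195, 50.6, 541 and 35.2 in GS-5759 arrays, against 251, 63.8, 711 and 50.9 in Ind/GSK arrays, a difference of -0.34 ± 0.057 (adjusted p = 0.294). KRT7, a keratin of simple epithelia, read 1666, 424, 5974 and 396 in GS-5759 arrays, against 2281, 498, 7599 and 467 in Ind/GSK arrays (-0.31 ± 0.059, adjusted p = 0.561). IL20RB, a receptor subunit for IL-20 family cytokines, read 296, 73.4, 1863 and 66.7 in GS-5759 arrays, against 385, 98.9, 2186 and 85.7 in Ind/GSK arrays (-0.31 ± 0.062, adjusted p = 0.651). In all 3 the replicates differed from each other by more than 10-fold, while each GS-5759 array was below its own match; 1 other KRT7 probe set gave -0.057 and another -0.24. In the test of whether a difference varied over the times, ZNF354B, CLMP, PDK4, KRT7 and PHKA1, a subunit of phosphorylase kinase, had the smallest p, with adjusted p from 0.648 to 1. PHKA1 differed by 0.37 ± 0.078 at 1 h and by -0.18 ± 0.078 at 18 h.

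Averaged over the 4 times, many small differences passed the test. Of 14412 genes, 2206 were called (15.3%), 2040 higher with GS-5759 (14.2%) and 166 lower (1.15%), so 92.5% of the calls were higher. No called or uncalled gene differed 1.5-fold on average, and the largest average difference was that of PALMD, at a fold of 0.721. The GS-5759 arrays were also the brighter ones at their upper end, as given above, and the part of that offset in these calls was not tested. Centred on the 75th percentile, 137 genes were called, 10 higher (0.0694%) and 127 lower (0.881%), or 7.3% higher, and after quantile normalization 138, 45 higher and 93 lower, or 32.6% higher. The count and the balance of higher against lower calls therefore depended on the scale. Of the 2040 genes called higher as deposited, 106 had a negative difference after 75th percentile centring, and 78 genes were called the same way under all 3 scalings, 10 higher and 68 lower. The count also rested on the replicates: with all arrays as deposited it was 0 without replicate 1, 168 without replicate 2, 1 without replicate 3 and 974 without replicate 4. In the unpaired fit 7 genes were called, all lower, and with 1 value per replicate number, averaged over the times, 1 gene was called, PALMD.

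**Figure D5:**
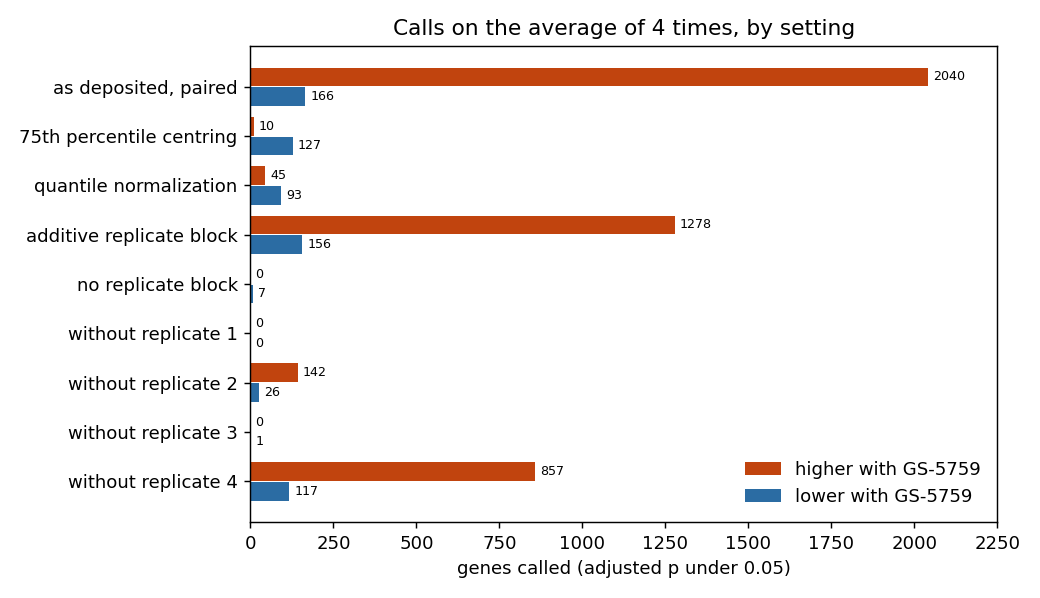
Genes called on the average of 4 times, higher (red) and lower (blue) with GS-5759, under the main setting and 8 alternatives; bars start at 0. The 2040 higher calls as deposited become 10 after 75th percentile centring and 0 without replicate 1 or replicate 3.

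The largest lower and higher genes, given next, were picked by the size of their called differences in these same 16 pairs. That choice favours a common direction and separated arrays, so neither is added support. The pairs also carry the same replicate numbers at each time. Among the lower genes PALMD, which encodes the membrane-associated protein palmdelphin, differed most. It read 121, 112, 112 and 109 in GS-5759 arrays, against 149, 228, 171 and 149 in Ind/GSK arrays at 1 h, 105, 135, 78.9 and 91 in GS-5759 arrays, against 152, 153, 126 and 173 in Ind/GSK arrays at 6 h and 94.6, 110.4, 109 and 103 in GS-5759 arrays, against 183, 141, 134 and 108 in Ind/GSK arrays at 18 h. All 16 pairs were lower with GS-5759, and at 1 h the highest GS-5759 array was below the lowest Ind/GSK array; the average was -0.47 ± 0.065 (fold 0.721, interval 0.655 to 0.794, adjusted p = 0.00522). This probe set is dim, at a mean signal of 134. The other 2 probe sets of PALMD, both below the filter on their mean log2 signal, gave 0.12 and 0.20, the opposite direction. The first of these was almost as bright, at a mean signal of 123, so the PALMD result holds for 1 probe set and not for the gene as a whole. The long non-coding RNA LINC01366 was also lower in all 16 pairs, at -0.31 ± 0.032 (adjusted p = 0.000835, the smallest of all genes), with 222, 220.2, 237 and 211 in GS-5759 arrays, against 317, 323, 296 and 267 in Ind/GSK arrays at 2 h. Its second probe set gave 0.028, so the result holds for 1 probe set and not for the gene as a whole.

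RPL27A, a protein of the large ribosomal subunit, was the brightest of the 10 lower genes named on average; many processed pseudogenes resemble it, so its probes may not read it alone. It read 1186, 1189.7, 1222 and 1208 in GS-5759 arrays, against 1641, 1736, 1835 and 1533 in Ind/GSK arrays at 2 h and 947, 1348, 1095 and 1209 in GS-5759 arrays, against 1515, 1374, 1403 and 1592 in Ind/GSK arrays at 6 h, lower with GS-5759 in 15 of 16 pairs, at -0.34 ± 0.051 (adjusted p = 0.0104). At 2 h the 4 GS-5759 arrays lay below all 4 Ind/GSK arrays. MEFV had 114, 119, 120.5 and 127 in GS-5759 arrays, against 163, 174, 160.1 and 174 in Ind/GSK arrays at 1 h and differed by -0.34 ± 0.044 on average, and FGFR2, a fibroblast growth factor receptor, by -0.34 ± 0.07, each lower in 15 of 16 pairs; the 2 other probe sets of FGFR2 above the filter gave -0.079 and -0.12. HES5, a repressor downstream of Notch, differed by -0.29 ± 0.043 and was lower in 14 of 16. LINC02504 (-0.34 ± 0.087) and KPLCE (-0.32 ± 0.07) were called under all 3 scalings too, whereas RFPL2 (-0.31 ± 0.099) and PIP5K1B, a lipid kinase (-0.31 ± 0.088), were called as deposited only. The lower genes were dim as a group: the median signal of the 166 was 161, and of the 68 called under all scalings 202, against 699 over all genes tested.

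Of the 10 largest higher genes, SOX9, a transcription factor of airway progenitor cells, and UAP1L1 were called under all 3 scalings. SOX9 read 263, 248, 476 and 182 in GS-5759 arrays, against 203, 170.0, 390.2 and 156 in Ind/GSK arrays at 1 h and 179.8, 142, 213 and 136 in GS-5759 arrays, against 110.5, 139, 158 and 118 in Ind/GSK arrays at 18 h. GS-5759 was higher in 14 of 16 pairs, by 0.25 ± 0.04 (fold 1.19, adjusted p = 0.0131), and by 0.18 after 75th percentile centring; its second probe set gave 0.13. UAP1L1 differed by 0.22 ± 0.038. The kinase gene DMPK (0.23 ± 0.041), RPH3AL, which acts in vesicle release (0.24 ± 0.042), and FAM13C (0.22 ± 0.041) were called as deposited and after quantile normalization, not after 75th percentile centring. PEX5L-AS2 (0.26 ± 0.068), GRAPL-AS1 (0.23 ± 0.069), the immunophilin gene FKBP8 (0.23 ± 0.057), PTMS (0.22 ± 0.055) and the adhesion gene FLRT3 (0.22 ± 0.059) were called as deposited only.

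Other gene groups showed small medians and differed in their share of calls on the average, and none of these calls remained after 75th percentile centring. Immediate early genes had 7 of 20 called higher on average and 0 lower, with a median of 0.11, against 0.055 for all genes and 14.2% called higher; EGR1 was their highest and FOSL2, an AP-1 factor, their lowest (0.013 ± 0.042). Genes of receptor signalling to cAMP and of its synthesis and breakdown had 4 of 27 higher and 0 lower, a median of 0.044, and ranged from ARRB1, a β-arrestin (-0.058 ± 0.036), to ADRB1, the β1-adrenoceptor (0.16 ± 0.048). Anti-inflammatory and bronchoprotective effectors had 3 of 20 higher and glucocorticoid-inducible genes 3 of 18, each with 0 lower and medians of 0.031 and 0.02; ZFP36, which destabilises cytokine mRNAs, was the highest glucocorticoid-inducible gene (0.14 ± 0.033). Inflammatory cytokines, chemokines and adhesion molecules had 1 of 14 higher, LIF, an IL-6 family cytokine (0.16 ± 0.043), and 1 lower, CCL5, a T cell chemokine (-0.13 ± 0.041). MAP kinase feedback inhibitors had 3 of 16 called higher. The largest difference over all 16, called or not, was that of SPRED1 (0.16 ± 0.056).

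Interferon-stimulated genes varied widely between pairs, without a common direction. None of the 21 tested was called on average or at any time. Their median per pair at 1 h was -0.64, 0.48, 0.063 and -0.52 in replicates 1 to 4, and at 6 h 0.38, -0.36, -0.12 and 0.72. Replicate 2 was positive at 1 h and negative at 6 h, and replicates 1 and 4 the reverse. IFI44L, an interferon-induced protein, read 453, 687, 942 and 217 in GS-5759 arrays, against 597, 384, 942 and 344 in Ind/GSK arrays at 1 h and 748, 466, 766 and 385 in GS-5759 arrays, against 469, 709.8, 752 and 206 in Ind/GSK arrays at 6 h, and OASL, an antiviral protein, 407, 555, 544 and 204 in GS-5759 arrays, against 856, 468, 449 and 299 in Ind/GSK arrays at 1 h. Their average differences were 0.14 ± 0.12 and -0.028 ± 0.11.

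Growth genes were close between the treatments. Genes of G2/M and mitosis had 5 of 24 called higher on average and 0 lower, with a median of 0.072, and at 6 h 21 of 24 lay above the median of all genes, at a median of 0.13 with 0 called. Relative to all genes the 6 h pairs gave 0.083, 0.067, 0.18 and 0.0025 in replicates 1 to 4, so again replicate 3 was the farthest and replicate 4 the nearest to 0. CDK1, the mitotic kinase, was the lowest member (0.016 ± 0.043) and BORA, an activator of AURKA, the highest (0.12 ± 0.03). Over all genes 14.2% were called higher and 1.15% lower. G1/S and DNA replication genes had 5 of 23 higher and a median of 0.071, YAP and SRF target genes 5 of 16 and 0.075, clock genes 4 of 16 and 0.096, and matrix and TGF-β response genes 4 of 20 and 0.056, with 0 lower in each. The highest members were UNG, a DNA repair glycosylase (0.13 ± 0.04), SRF itself (0.13 ± 0.04), the clock output factor HLF (0.20 ± 0.052) and TGFB1 (0.16 ± 0.051).

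Stress and metabolic groups had few called members, set against the same 14.2% of all genes called higher and 1.15% called lower. Unfolded protein and integrated stress response genes had 3 of 17 higher, led by SESN2 (0.14 ± 0.03), cholesterol synthesis genes 2 of 11, led by their regulator SREBF2 (0.12 ± 0.03), and heat shock genes 2 of 10. NRF2 target genes had 1 of 12 higher and 1 lower, AKR1C1, an aldo-keto reductase (-0.17 ± 0.054). Aryl hydrocarbon receptor target genes had 1 of 6 higher, ALDH3A1 (0.16 ± 0.049), and EGF receptor ligands and receptors 1 of 7, ERBB3 (0.091 ± 0.027). Among 11 reference genes 1 was called, TBP, at 0.069 ± 0.02 (higher in 15 of 16 pairs), a difference that was 0.00043 after 75th percentile centring. Among markers of cell types, 0 of 9 airway epithelial, 0 of 3 for ciliated or club cells, 0 of 9 for fibroblasts, 0 of 5 for leukocytes and 0 of 1 for endothelium were called on average. Of the leukocyte list, which includes the red cell gene HBB, 6 members were on the array and 5 were tested. The summed signal of those 6 ran from 1163 to 1496 in GS-5759 arrays and from 1061 to 1608 in Ind/GSK arrays.

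How far apart the treatments could be was read from the 95% intervals. On average over the times the interval lay within 1.5-fold in either direction for 14407 of 14412 genes; the other 5 were LINC00317, MALRD1-AS1, FOXD3, ZNF749 and PALMD. At single times, with 4 pairs each, it lay within 1.5-fold for 14186 genes at 1 h, 14194 at 2 h, 14181 at 6 h and 14245 at 18 h, and 0 genes had a difference of 2-fold. Of the 29 tested genes of the cAMP panel, 28, 28, 26 and 27 were within 1.5-fold at those times and 29 on average. Their median difference was 0.096 at 1 h, 0.09 at 2 h, -0.13 at 6 h and -0.027 at 18 h, and 29, 26, 8 and 12 were above 0, with 16, 19, 5 and 5 above the median of all genes. The intervals assume that the spread between pairs is alike at the 4 times. They and the adjusted p-values of the genes treat the 16 pairs as independent, although the same 4 replicate numbers recur at each time. In the unpaired fit 14053 genes were within 1.5-fold on average, and with 1 value per replicate number 14405 were.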

How the data were processed

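Per the submitters' processing notes, the authors used PLIER and Affymetrix Expression Console, which gave probe set intensities on a linear scale; tool versions and any scaling between arrays are not given in the sources used here. The deposited intensities came from Affymetrix U133 Plus 2.0 arrays, 1 per sample. Arrays give no counts, so precision is limited by their number.

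The arrays hold 54675 probe sets. Exactly 1 gene symbol was attached to 41091 of them, several to 1801 and none to 11721, and 62 are controls; gene identifiers linked 41037 of the 41091 to a current symbol. Values were turned into log2(value + 16). The probe set with the highest mean log2 value stood for each of 19775 genes, and the 14412 whose mean over the 32 arrays was above the 40th percentile of all probe sets (a signal of 75.2) were tested. Within-pair differences were fitted with limma 3.58.1 in R 4.3.3, 1 coefficient per time (12 residual and 3.4 prior degrees of freedom), with Benjamini-Hochberg adjustment inside each comparison. An F-test asked whether differences varied over the times.

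Same-numbered arrays were checked for pairing: after group means were removed they correlated at 0.551 to 0.931, all above 0.1, against -0.812 to 0.749 for different numbers, and 14 of 16 arrays correlated best with their own number. The pairing comes from the titles and this check. No labels give a slide, scan or other batch.

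Genes named were, per comparison, the 10 largest called differences in each direction, or, where fewer than 3 were called, the 3 with the smallest unadjusted p; the 5 with the smallest p over the times; a panel of 30 cAMP-response genes, of which 1 is not reported here; and the lowest and highest member of 25 lists. Members and lists were chosen with earlier results of these data known. The methods were tested on simulated data. Alternatives were the unpaired fit, an additive replicate block, other scalings, pseudocounts, filters, a mean-variance trend and leaving out each replicate. Data were read with the R package data.table, version 1.17.8, and figures were drawn with Python 3.11.15 and matplotlib 3.10.9. Promoter sequences are RefSeq's (GRCh38.p14).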

Additional observations from a re-analysis of the deposited data

Results flagged for a closer look

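Groups of 4 arrays or pairs were searched for a value far from the other 3, over the 43 gene and time combinations shown and the array offsets. Of 133 groups, 5 held such a value, where chance flags about 1 in 20. SPRY2 read 4141 in replicate 3 of GS-5759 at 1 h, against 2528 to 2659.9 in the other replicates, and the matched Ind/GSK array was high as well. IL15 read 1082 in replicate 1 of GS-5759 at 6 h, with the other 3 GS-5759 arrays below 796. AURKA read 5269 in replicate 1 of Ind/GSK at 2 h, and the matched GS-5759 array was also the highest of its group. LINC00473 differed by 0.32 in replicate 2 at 2 h, GS-5759 minus Ind/GSK, above the other 3 pairs. The 75th percentile of signal differed by 0.013 in replicate 3 at 2 h, below the other 3 pairs, which lay near 0.071.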

How the results depend on the processing

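The count on the average of 4 times, 2206, was kept within 1.5-fold by pseudocounts of 1 and 64, a 60th percentile filter and a mean-variance trend. It was 7 with no replicate block, 1434 with an additive replicate block over all times, 1 with the replicate as the unit, 137 after 75th percentile centring, 138 after quantile normalization, 72 centred on the median of the tested genes (an alternative added after seeing the data), 750 without a filter and 6349 over all probe sets. Leaving out 1 replicate gave 0 to 974. After 75th percentile centring, in fits also added after seeing the data, the 137 became 85 with no replicate block, 1 with the replicate as the unit and 1 to 47 without 1 replicate. The 1 call at 1 h became 2 after quantile normalization and 0 with no replicate block, an additive replicate block, the 8 arrays of that time alone, 75th percentile centring, a pseudocount of 64, no filter, a 60th percentile filter, all probe sets and a trend, and was 0 without any 1 replicate. The counts at 2, 6 and 18 h and over the times stayed at 0 in all alternatives run. The number of genes with an average interval within 1.5-fold changed by more than 1.5-fold only over all probe sets, where more were tested (27095 of 27109). The array median in place of the 75th percentile gave 0.018 (exact sign-flip test, p = 0.0778); with the replicate as the unit, added after seeing the data, the 75th percentile gave 0.070 (exact sign-flip test, p = 0.125, the smallest possible). Of 22 called results for named genes, 0 reversed in any alternative; 5 stayed called with no replicate block, 18 with an additive block, 10 after 75th percentile centring, 14 after quantile normalization, 0 without replicate 1, 10 without replicate 2, 1 without replicate 3 and 18 without replicate 4. The cause of these shifts was not tested. Probe sets near background limit the lower calls, whose median signal was 161, against a filter of 75.2.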
